A study of Mus musculus with 18 samples.

Results

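AT3, a mouse mammary carcinoma cell line, was exposed to A-241, a catalytic inhibitor of the lysine acetyltransferases P300 and CBP, and the response to interferon-γ (IFNγ) that remained in its presence is described here. The comparison sets the 3 libraries treated with A-241 and IFNγ against the 3 libraries treated with A-241 alone, which are 6 of the 18 libraries of the series. In both groups cells received 250 nM A-241 for 1 h, after which recombinant murine IFNγ at 1 ng/mL (A241+IFNy) or vehicle (A241) was added for a further 2 h, 3 h in all. The matching libraries without inhibitor, 3 with DMSO and 3 with DMSO and IFNγ, and 6 with the second inhibitor A-485 at 1000 nM, with and without IFNγ, served as reference. Every group was 1 cell line in culture with 3 libraries, called biological triplicate in one place by the submitters and technical triplicate in another, so p-values measure the spread between these libraries, which may be technical.

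IFNγ binds a receptor formed by Ifngr1 and Ifngr2, and the receptor-bound kinases Jak1 and Jak2 activate transcription factors that enter the nucleus and bind gamma-activated sites (GAS). One of the first genes switched on is Irf1, a transcription factor that binds interferon-stimulated response elements (ISRE) and drives a second set of genes, among them guanylate-binding proteins, antigen presentation genes and chemokines that attract T cells. P300 and CBP acetylate histones, including lysine 27 of histone H3 at enhancers, and are recruited by many transcription factors.

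Expression was measured by QuantSeq, which counts reads from the 3′ ends of polyadenylated transcripts. The 6 libraries held 4489805 to 5526465 counts. Levels are given as CPM, read counts scaled to library size with edgeR's TMM factors, and fold changes on the log2 scale. Fewer responding cells and less RNA per cell cannot be told apart in these bulk libraries. The cells carried the epithelial keratins Krt8 and Krt18, while Krt19 of the same list had 0, 1 and 0 counts with A-241 and was not tested. The epithelial list, in which Cdh1 was highest, summed to 779.7 to 865.7 CPM with A-241 and 807.2 to 839.9 CPM with A-241 and IFNγ. Its 5 tested genes had log2 fold changes with IFNγ in the presence of A-241 between -0.02 and 0.13. Basal Krt14 and mesenchymal Vim were also present, at log2 CPM of 7.80 to 8.14 and 6.36 to 6.54 with A-241. Of 14 markers of haematopoietic, fibroblast and endothelial cells, 4 had enough counts to be tested. The haematopoietic list summed to 2.20 to 5.55 CPM with A-241 and 3.12 to 4.93 CPM with A-241 and IFNγ. Outside the comparison, DMSO replicate 3 and IFNy replicate 2 stood apart, with 20.1% and 23% of counts on the noncoding RNA gene Gm42418 against 9.01% to 15.2% in the 6 libraries described here.

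With A-241 on both sides, IFNγ raised 23 of 11964 genes tested (0.192%; edgeR quasi-likelihood test, adjusted p under 0.01) and lowered none past the threshold. Without inhibitor IFNγ raised 144 genes (1.20%) by the same test. Both numbers depend on which libraries share the estimate of the spread. Fitted on their own 6 libraries, the A-241 groups gave 40 raised genes. The groups without inhibitor, fitted on theirs, gave 19 with a log2 fold change over 1. All 23 genes had 3 A241+IFNy libraries above all 3 A-241 libraries, an arrangement found in 6.08% of all genes tested. The 23 were chosen by the test on these same libraries, so this arrangement and their fold changes add no support. The median log2 fold change of the 23 was 2.03, and the 21 of them with more than 3 counts in an A-241 library ran from 1.04 to 6.02, while the median over all genes tested was -0.0025. The 23 genes held the transcription factor Irf1, 2 guanylate-binding proteins, 5 immunity-related GTPases, the chemokine Cxcl10, the antiviral genes Ifit1, Rtp4 and Trim21, the ADP-ribosylation genes Parp14 and Dtx3l, and the antigen processing genes Psmb9 and Tap1. Arid5a, Slfn2, Rin2, Arhgef26 and the HIN-200 genes Ifi211, Ifi205 and Mndal made up the rest. For 14 of the 23 the call held when any 1 of the 6 libraries was left out, and the number of genes raised was then 14 to 17, with 14 without A241 replicate 1 and 14 without A241 replicate 3. With DMSO replicate 3 and IFNy replicate 2 left out of the fit, 53 genes were raised, all 23 among them.

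**Figure D1:**
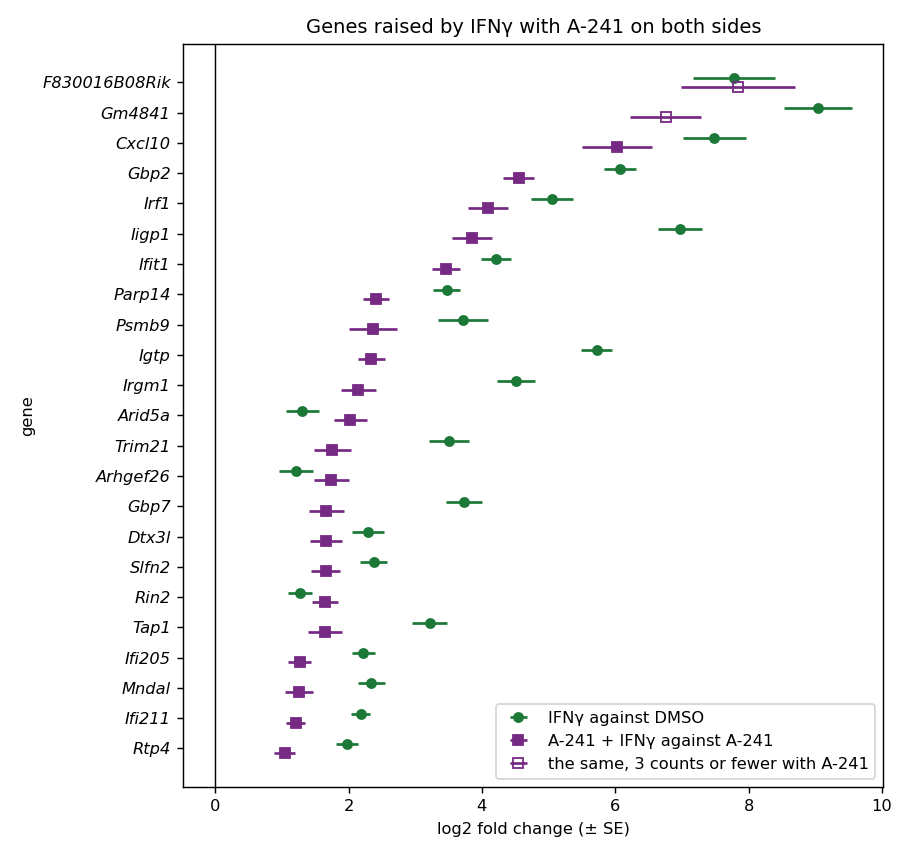
Log2 fold change (x axis, ± SE) of the 23 genes raised by IFNγ with A-241 on both sides (y axis), as squares, beside the response to IFNγ without inhibitor, as circles, each from 3 against 3 libraries. The filled squares run from 1.04 for Rtp4 to 6.02 for Cxcl10, and those of Rin2, Arid5a and Arhgef26 lie to the right of their circle. The open squares of F830016B08Rik and Gm4841 are fitted over 0 to 2 counts per A-241 library and depend on the prior count.

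The upstream sequence of a few genes is shown because the 2 DNA elements named above lie there in some of them and not in others. The stretches come from the RefSeq promoter table for GRCm38.p6, end at the base before the first start that RefSeq or GENCODE vM21 gives the gene, and are written 5′ to 3′ on the strand of the gene. Capitals mark matches on either strand to the ISRE core, read here as GAAA repeated after a gap of any 2 bases, or to the GAS core TTCNNNGAA, where N is any base. Irf1, Ifit1, Cxcl10 and Igtp were raised with A-241 present, with gains in CPM of 53.2%, 62.2%, 12.6% and 10.4% of those without inhibitor. Among them only Igtp passed the threshold in the test of the difference between the responses. Gbp3 was not raised past the threshold, and Arid5a was raised and holds neither element.
Irf1 (chr11:53769764-53770013, plus strand): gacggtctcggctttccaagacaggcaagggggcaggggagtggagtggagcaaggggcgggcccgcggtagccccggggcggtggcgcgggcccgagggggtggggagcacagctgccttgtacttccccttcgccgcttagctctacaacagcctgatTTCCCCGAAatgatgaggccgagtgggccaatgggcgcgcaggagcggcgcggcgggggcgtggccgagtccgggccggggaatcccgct
Ifit1 (chr19:34640639-34640870, plus strand): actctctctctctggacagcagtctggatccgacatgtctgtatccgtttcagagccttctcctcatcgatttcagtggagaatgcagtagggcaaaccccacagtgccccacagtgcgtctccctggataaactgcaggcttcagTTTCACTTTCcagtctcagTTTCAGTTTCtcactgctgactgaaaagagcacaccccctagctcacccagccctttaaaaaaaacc
Cxcl10 (chr5:92348890-92349139, minus strand): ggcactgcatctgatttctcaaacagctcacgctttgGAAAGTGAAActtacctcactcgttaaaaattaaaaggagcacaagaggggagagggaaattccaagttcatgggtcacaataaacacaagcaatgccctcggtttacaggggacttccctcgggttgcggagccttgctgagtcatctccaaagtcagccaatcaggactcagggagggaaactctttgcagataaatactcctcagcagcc
Igtp (chr11:58199306-58199555, plus strand): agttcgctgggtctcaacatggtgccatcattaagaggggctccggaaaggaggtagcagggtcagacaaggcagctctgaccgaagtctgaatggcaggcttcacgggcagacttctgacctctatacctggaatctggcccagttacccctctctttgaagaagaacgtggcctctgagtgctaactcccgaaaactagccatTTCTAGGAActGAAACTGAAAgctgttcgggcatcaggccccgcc
Gbp3 (chr3:142559794-142560025, plus strand): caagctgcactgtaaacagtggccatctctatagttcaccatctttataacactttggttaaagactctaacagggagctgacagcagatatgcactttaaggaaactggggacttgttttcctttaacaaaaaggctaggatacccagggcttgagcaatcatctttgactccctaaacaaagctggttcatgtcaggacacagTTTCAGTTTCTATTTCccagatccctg
Arid5a (chr1:36307483-36307732, plus strand): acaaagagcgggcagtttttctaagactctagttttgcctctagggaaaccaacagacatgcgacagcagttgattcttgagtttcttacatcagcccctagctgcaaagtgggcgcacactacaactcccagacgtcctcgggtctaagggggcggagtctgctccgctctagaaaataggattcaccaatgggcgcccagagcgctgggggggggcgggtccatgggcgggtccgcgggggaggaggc

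Irf1 holds 1 GAS core, whose first base is number 90 counted back from the last base of the stretch, Ifit1 holds 2 ISRE cores, which begin at 86 and 67 on that count, and Cxcl10 holds 1, which begins at 213. Igtp holds both elements, the GAS core from 45 and the ISRE core from 34, and Gbp3 holds 2 overlapping ISRE cores, from 27 and 21. Counted in the 250 bases before the RefSeq start, an ISRE core stood in 9 of the 18 raised genes with an entry in the table, in 29.2% of the 89 entries among genes induced without inhibitor that were not called with A-241, and in 3.46% of all 27025 genes of the table. A GAS core stood in 3 of the 18, in 18% of the 89 and in 8.13% of all genes. These shares are a description of letters in a window and no test was made of them.

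IFNγ still raised Irf1 with A-241 present. Levels of Irf1 were 24.1, 18.2 and 20 CPM without IFNγ and 352, 351 and 365 CPM with it, all in the presence of A-241, a log2 fold change of 4.10 ± 0.30 (SE, n = 3 against 3), adjusted p = 1.16e-06. Without inhibitor IFNγ took Irf1 to 719.8, 408 and 819 CPM, where IFNy replicate 2 is the lowest. The mean gain in CPM with A-241 was 53.2% of the gain without it, and 44.7% to 61.5% when 1 of the 12 libraries was left out. Irf8, another IRF gene, had 0, 1 and 2 counts with A-241 and 5.64, 5.21 and 5.35 CPM with IFNγ added, and missed the threshold (adjusted p = 0.0153, edgeR). Of the 7 IRF genes tested, Irf1 alone passed the threshold with A-241, while Irf2 and Irf7 had log2 fold changes of 0.53 and 0.59, and Irf9, the DNA-binding subunit of the factor that type I interferon activates, had -0.25.

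None of the 7 receptor, JAK and STAT genes passed the threshold with A-241 present, against 2 without inhibitor. The receptor chains Ifngr1 and Ifngr2 and the kinases Jak1 and Jak2 had log2 fold changes of -0.04, -0.13, 0.04 and 0.07. Stat2 stood at 6.29, 9.59 and 7.78 CPM with A-241 and 15.6, 20.7 and 14.6 CPM with A-241 and IFNγ, which missed the threshold (adjusted p = 0.0414).

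**Figure D2:**
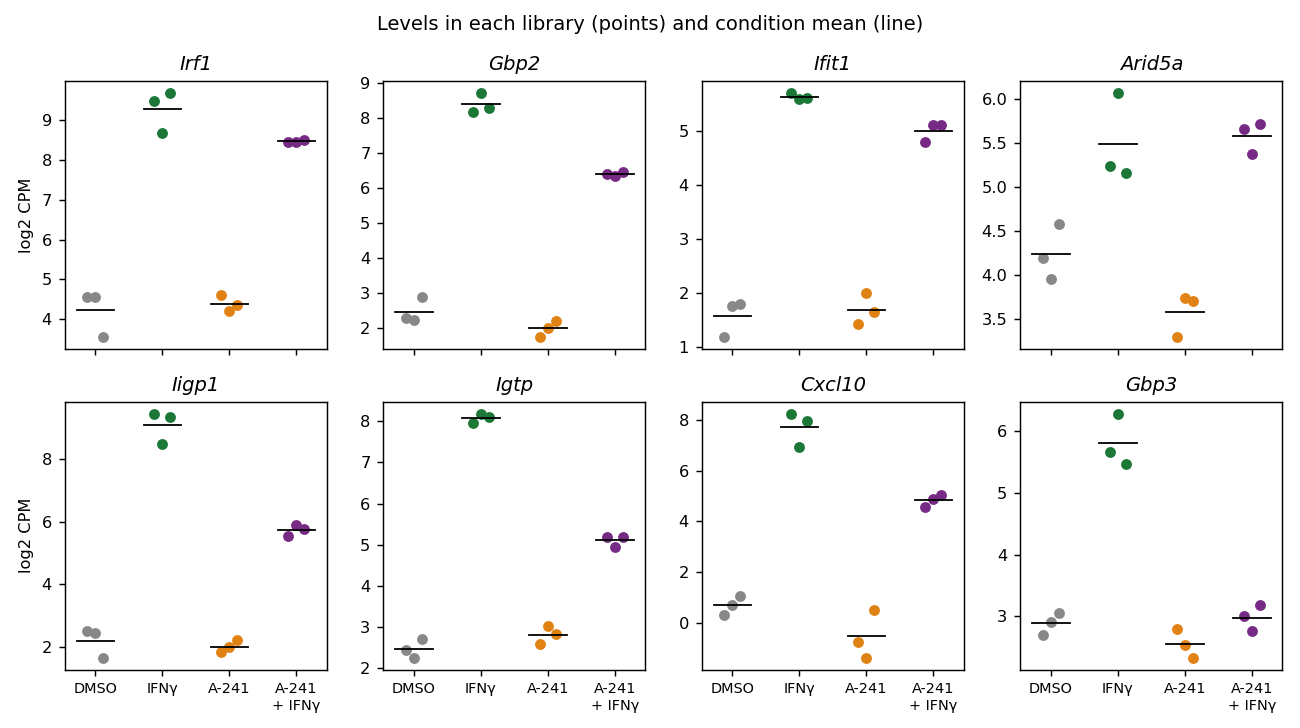
Log2 CPM (y axis, a separate scale in each panel) of 8 genes in each of 3 libraries of 4 conditions (x axis), with a line at the condition mean. Irf1, Gbp2, Ifit1, Arid5a, Iigp1, Igtp and Cxcl10 rise with A-241 present. All of these but Arid5a reach a lower level than with IFNγ alone. The Gbp3 libraries with A-241 and IFNγ lie near those of DMSO.

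The guanylate-binding proteins, GTPases that coat and break the vacuoles of intracellular pathogens, split. All 5 that were tested passed the threshold without inhibitor and 2 did with A-241. With A-241, Gbp2 measured 2.94, 3.6 and 4.2 CPM, and A-241 with IFNγ gave 84.2, 81.3 and 88.1 CPM, which amounts to a log2 fold change of 4.55 ± 0.23 (SE, n = 3 against 3), adjusted p = 1.43e-08. This was the lowest p-value of all genes in the comparison, although the level with IFNγ stayed under the 292, 421 and 312 CPM reached without inhibitor, and the gain in CPM was 24.1% of that without. Gbp7 stood at 5.66, 3.6 and 4.84 CPM with A-241 and at 15.4, 14.3 and 15.2 CPM once IFNγ was added, a log2 fold change of 1.67 ± 0.26 (SE, n = 3 against 3), adjusted p = 0.00533. Gbp7 shares exon bases with the gene model Gm43802, and its call was lost when any 1 of the 6 libraries was left out (highest adjusted p = 0.0555). Gbp3 stood at 6.5, 5.4 and 4.63 CPM with A-241 and 7.6, 6.35 and 8.64 CPM with IFNγ added, a log2 fold change of 0.44 with adjusted p = 1, against 50.4, 77.6 and 44 CPM with IFNγ alone. The lowest library with IFNγ lay below the highest without it. The interaction of Gbp3 was -2.58 ± 0.33 (SE; edgeR, adjusted p = 0.00284), a call that was lost without any 1 of DMSO replicates 1 and 2, A241 replicates 1 and 2, and A241_IFNy replicates 1 and 2 (adjusted p up to 0.0130), by limma voom (0.0109) and with only the groups compared in the fit (0.0446). Gbp2b and Gbp4 reached no more than 0.434 and 0.412 CPM with A-241 and IFNγ, which is at or under the level of 3 counts. Gbp2, Gbp3 and Gbp7 are neighbours on chromosome 3 (GRCm38, Gbp2 at chr3:142620602-142638008 and Gbp7 at chr3:142530342-142550149, plus strand).

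The immunity-related GTPases, which act on pathogen vacuoles alongside the guanylate-binding proteins, were all 11 raised without inhibitor, and 5 passed the threshold with A-241. The 6 with more than 3 counts in an A-241 library had log2 fold changes from 1.76 to 3.85. With the other 5 taken at their lower bound against 3 counts the median of the 11 was 2.11, and it was 5.72 without inhibitor on the same rule. Levels of Iigp1 were 3.15, 3.6 and 4.2 CPM without IFNγ and 46, 58.9 and 54.3 CPM with it, all in the presence of A-241, a log2 fold change of 3.85 ± 0.30 (SE, n = 3 against 3), adjusted p = 2.15e-06. Without inhibitor Iigp1 reached 696, 359 and 644 CPM, and the gain with A-241 was 8.8% of that, the smallest share among the 23 genes. With A-241, Igtp measured 5.66, 7.79 and 6.73 CPM, and A-241 with IFNγ gave 36, 30.6 and 36.2 CPM, which amounts to a log2 fold change of 2.34 ± 0.20 (SE, n = 3 against 3), adjusted p = 5.51e-06. Igtp reached 249, 289 and 276 CPM with IFNγ alone. Both therefore rose past the threshold and rose by less than without inhibitor: the interaction was -3.38 ± 0.29 (SE; edgeR, adjusted p = 3.22e-05) for Igtp and -3.12 ± 0.42 (adjusted p = 0.00379) for Iigp1. The Igtp call held without any 1 of the 12 libraries. The Iigp1 call held only without DMSO replicate 3 or IFNy replicate 2, and was lost without each of the other 10 (adjusted p up to 0.0306), by limma voom (0.0165), with total counts for scaling (0.0375) and with only the groups compared (0.0446). Igtp shares exon bases with Irgm2, whose log2 fold change was 1.76 (adjusted p = 0.369).

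Irgm1, a regulatory member of the family, stood at 2.73, 4.2 and 3.57 CPM with A-241 and 14.3, 14.5 and 18.1 CPM with IFNγ added, a log2 fold change of 2.15 ± 0.27 (SE, n = 3 against 3), adjusted p = 0.000505. Gm4841 was counted 2, 2 and 0 times with A-241 and reached 33, 31.2 and 32.7 CPM with IFNγ added, so the level was at least 51.4-fold higher, measured against 3 counts in the shallowest A-241 library. F830016B08Rik was counted 0, 0 and 0 times and reached 3.91, 6.35 and 6.38 CPM with IFNγ, at least 8.81-fold higher on the same floor. Both lie near Iigp1 on chromosome 18 in a cluster of similar genes, so that reads may have been divided between copies. Tgtp1 and Tgtp2, another near-identical pair, reached 4.99, 4.39 and 1.85 CPM and 4.99, 4.07 and 1.85 CPM with A-241 and IFNγ, against 129, 42.5 and 136 CPM and 127, 31.8 and 134 CPM with IFNγ alone, and did not pass the threshold.

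Among the ligands of CXCR3, a chemokine receptor of T cells, Cxcl10 was raised and the other two were not. Cxcl10 had 1, 0 and 5 counts with A-241 and 23.4, 29.4 and 32.3 CPM once IFNγ was added, a log2 fold change of 6.02 ± 0.53 (SE, n = 3 against 3), adjusted p = 5.92e-06. The value was 5.44 to 7.81 with 1 of the 6 libraries left out, the highest without A241 replicate 3, which held the 5 counts. With IFNγ alone it reached 299, 121 and 249 CPM, of which the gain with A-241 was 12.6%. Cxcl9 reached 1.95, 1.95 and 2.47 CPM with A-241 and IFNγ against 149.7, 97.5 and 177 CPM with IFNγ alone, and the rise over 1, 2 and 1 counts missed the threshold (adjusted p = 0.144). Cxcl11 was at 0, 0 and 2 counts with A-241 and IFNγ, under the floor of 3 counts. The other 8 chemokine genes tested held no call in either comparison. With A-241, groups did not overlap with IFNγ above for 5 of these 8, beside 6.08% over all genes. The 6 with more than 3 counts in an A-241 library had log2 fold changes from 0.55 to 2.87. Cx3cl1 stood at log2 CPM of 1.64, 1.13 and 1.05 with A-241 and 3.88, 4.23 and 3.74 with IFNγ added. With IFNγ alone Cx3cl1 had 6.81, 2.52 and 6.74, the lowest in IFNy replicate 2.

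Antigen processing genes gave 2 calls and the MHC class I genes none. Psmb9, a catalytic subunit of the immunoproteasome, and Tap1, which carries peptides into the endoplasmic reticulum, are divergent neighbours on chromosome 17 (GRCm38, Psmb9 at chr17:34181987-34187764 on the minus strand, Tap1 at chr17:34187553-34197225 on the plus strand) that share exon bases. Psmb9 stood at 0.839, 2 and 2.52 CPM with A-241 and at 8.47, 10.1 and 9.47 CPM once IFNγ was added, a log2 fold change of 2.37 ± 0.36 (SE, n = 3 against 3), adjusted p = 0.00432. Levels of Tap1 were 8.18, 13.2 and 10.1 CPM without IFNγ and 30.4, 34.2 and 34 CPM with it, all in the presence of A-241, a log2 fold change of 1.64 ± 0.25 (SE, n = 3 against 3), adjusted p = 0.00433. The groups did not overlap for either gene. The Psmb9 call was lost without any 1 of the 6 libraries (highest adjusted p = 0.0339), and the Tap1 call without any of them but A241 replicate 2 (highest adjusted p = 0.0452). The gain kept was 44.4% for Psmb9 and 28.7% for Tap1.

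Psmb10, another catalytic subunit, had a log2 fold change of 1.15 (adjusted p = 0.0451), and Tap2 rested on 1 library, with 1.09, 9.44 and 1.44 CPM in the 3 A241+IFNy libraries. B2m, the invariant light chain of MHC class I, stood at 63.8, 77.9 and 82.8 CPM with A-241 and 81.6, 88 and 96.5 CPM with IFNγ added (log2 fold change 0.25, adjusted p = 1), and it was the 1 gene of 5 tested in its list that passed the threshold without inhibitor. The 5 had a median of 0.35 with A-241. Nlrc5, the transactivator of MHC class I genes, had 2, 5 and 5 counts with A-241 and IFNγ. Cd274, which encodes the checkpoint ligand PD-L1, had 2, 1 and 1 counts with A-241 and 10, 14 and 10 with IFNγ added, and missed the threshold (adjusted p = 0.0152), against 21.5, 18.7 and 12.9 CPM with IFNγ alone.

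Of 32 antiviral genes tested, 17 were raised without inhibitor and 3 with A-241 present, and all 32 had log2 fold changes above 0 with A-241, with a median of 0.75. With A-241, Ifit1 measured 2.31, 3.6 and 2.73 CPM, and A-241 with IFNγ gave 27.4, 34.5 and 34.2 CPM, which amounts to a log2 fold change of 3.46 ± 0.22 (SE, n = 3 against 3), adjusted p = 1.75e-07. Ifit1, which binds foreign 5′ ends of RNA, kept 62.2% of its gain. Trim21 stood at 2.94, 3 and 2.52 CPM with A-241 and at 8.47, 9.76 and 10.5 CPM once IFNγ was added, a log2 fold change of 1.76 ± 0.28 (SE, n = 3 against 3), adjusted p = 0.00524. Trim21 is a cytosolic antibody receptor and ubiquitin ligase, and its call was lost without any 1 of the 6 libraries (highest adjusted p = 0.0567). Rtp4, an interferon-induced inhibitor of flaviviruses, rose from 30.8, 39.2 and 41 CPM to 77.5, 68.8 and 82.3 CPM (log2 fold change 1.04, adjusted p = 0.00501) and also lost its call without any 1 library (highest adjusted p = 0.0469) and with no filter on low counts (0.0115). Of the neighbours of Ifit1, Ifit3b was counted 0, 3 and 3 times with A-241 and stood at 4.12, 3.09 and 4.73 CPM with IFNγ added, at least 6.33-fold higher against 3 counts. Its groups did not overlap, and the change missed the threshold (adjusted p = 0.0152). Ifit3 reached 4.56, 3.58 and 3.29 CPM with A-241 and IFNγ against 57.3, 92.7 and 74.7 CPM with IFNγ alone (adjusted p with A-241 = 0.26), and Ifit2 had a log2 fold change of 0.67 (adjusted p = 1).

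Among the PARP genes and Dtx3l, 2 of 6 were raised with A-241 and 4 without inhibitor. Levels of Parp14 were 11.5, 11.8 and 10.9 CPM without IFNγ and 61, 60.8 and 60.7 CPM with it, all in the presence of A-241, a log2 fold change of 2.41 ± 0.19 (SE, n = 3 against 3), adjusted p = 2.57e-06. Parp14 is a mono-ADP-ribosyltransferase, and its 3 A241+IFNy libraries differed by less than 1 CPM. With A-241, Dtx3l measured 41.8, 51 and 52.6 CPM, and A-241 with IFNγ gave 179, 122 and 159 CPM, which amounts to a log2 fold change of 1.66 ± 0.24 (SE, n = 3 against 3), adjusted p = 0.00197. Dtx3l, a ubiquitin ligase that works with Parp9, shares exon bases with it, and the 2 neighbours cannot be fully told apart by counting. The Dtx3l call was lost without A241 replicate 1, 2 or 3 or A241_IFNy replicate 1 (highest adjusted p = 0.0253). Parp9, Parp10, Parp11 and Parp12 had log2 fold changes from 0.001 to 0.84 and no call.

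**Figure D3:**
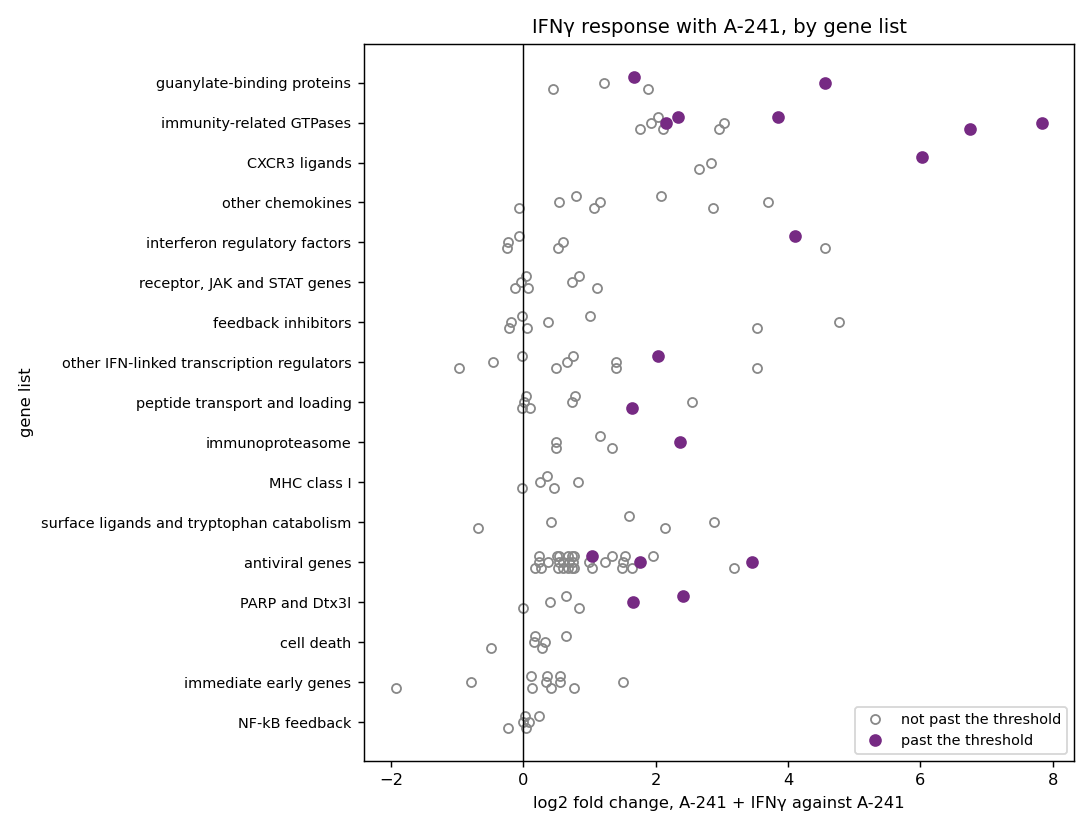
Log2 fold change of each tested member of 17 gene lists (y axis) between A-241 with IFNγ and A-241 alone (x axis), each point 1 gene from 3 against 3 libraries, filled where adjusted p was under 0.01. The filled points number 5 of 11 immunity-related GTPases and 3 of 32 antiviral genes, and the MHC class I, cell death, immediate early and NF-kB lists hold none.

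Arid5a, an RNA-binding protein that stabilises inflammatory messenger RNAs, was the 1 call among 10 other transcription regulators. Arid5a stood at 9.44, 13 and 12.6 CPM with A-241 and at 50.1, 41.2 and 52.1 CPM once IFNγ was added, a log2 fold change of 2.03 ± 0.25 (SE, n = 3 against 3), adjusted p = 0.000505. With IFNγ alone it reached 37.4, 66.6 and 35.4 CPM, so the levels with and without A-241 overlapped, and the gain with A-241 was 131% of that without, with 109% to 205% when 1 library was left out. Socs1, which blocks Jak kinases, stood at 10.2, 22.3 and 14.4 CPM with A-241 and IFNγ over 1, 3 and 4 counts with A-241. Its groups did not overlap, but the log2 fold change of 4.78 missed the threshold (edgeR, adjusted p = 0.0866). With IFNγ alone Socs1 had log2 CPM of 5.98, 0.66 and 5.81, the lowest in IFNy replicate 2. That library enters the estimate of the spread shared by all 18 libraries, and whether this bears on the missed threshold was not tested. Csrnp1, a nuclear regulator, went from 10.7, 9.59 and 8.83 CPM to 25.2, 22.1 and 29.8 CPM and also missed the threshold (adjusted p = 0.0451). Pml, the organiser of nuclear bodies, had a log2 fold change of -0.03, and Batf2 had 2, 1 and 1 counts with IFNγ present.

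The remaining calls were outside the lists. Ifi211, Ifi205 and Mndal belong to the HIN-200 family of nuclear DNA-binding proteins clustered on chromosome 1 (GRCm38, Ifi211 at chr1:173896345-173913046, minus strand). Levels of Ifi211 were 21.6, 22.6 and 18.9 CPM without IFNγ and 47.3, 48.3 and 50 CPM with it, all in the presence of A-241, a log2 fold change of 1.21 ± 0.14 (SE, n = 3 against 3), adjusted p = 0.000232. Ifi205 and Mndal moved alike, with log2 fold changes of 1.27 and 1.26. These are near copies whose reads can be divided between them, and Mndal shares exon bases with Gm38050 and Ifi203. Their level was lower with A-241 alone than with DMSO, a call made for 4 of the 23 genes and 3.53% of all genes, with differences of -1.13, -1.10 and -0.997 on the log2 scale (A-241 minus DMSO; edgeR, adjusted p = 6.31e-05, 0.000763 and 0.00588). Mndal lost its call without any 1 library (highest adjusted p = 0.0840), by limma voom (0.0102), with total counts for scaling (0.054) and with at least 10 counts in each library (0.0139). Ifi205 lost it without A241 replicate 1 or 3 (highest adjusted p = 0.0242) and with total counts for scaling (0.0165).

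Rin2, an activator of the small GTPase Rab5, had the same pattern of a lower start and a rise. With A-241, Rin2 measured 10.3, 8.79 and 6.94 CPM, and A-241 with IFNγ gave 28, 27 and 27 CPM, which amounts to a log2 fold change of 1.65 ± 0.20 (SE, n = 3 against 3), adjusted p = 0.0003. DMSO libraries stood at 35.3, 39.4 and 31 CPM, all above the 3 libraries with A-241 and IFNγ. Arhgef26, a guanine nucleotide exchange factor, rose from 4.83, 3.6 and 4.63 CPM to 15.4, 12 and 16.5 CPM (log2 fold change 1.74, adjusted p = 0.00413), and was the 1 gene of the 23 that did not pass the threshold without inhibitor (log2 fold change 1.21, adjusted p = 0.015). It shares exon bases with the gene model 9330121J05Rik, and its call was lost without any library but A241_IFNy replicate 2 (highest adjusted p = 0.0440). Slfn2, a Schlafen protein that maintains T cell and monocyte quiescence, rose from 6.92, 5 and 6.94 CPM to 21.3, 15.3 and 23 CPM, with adjusted p = 0.000641.

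**Figure D4:**
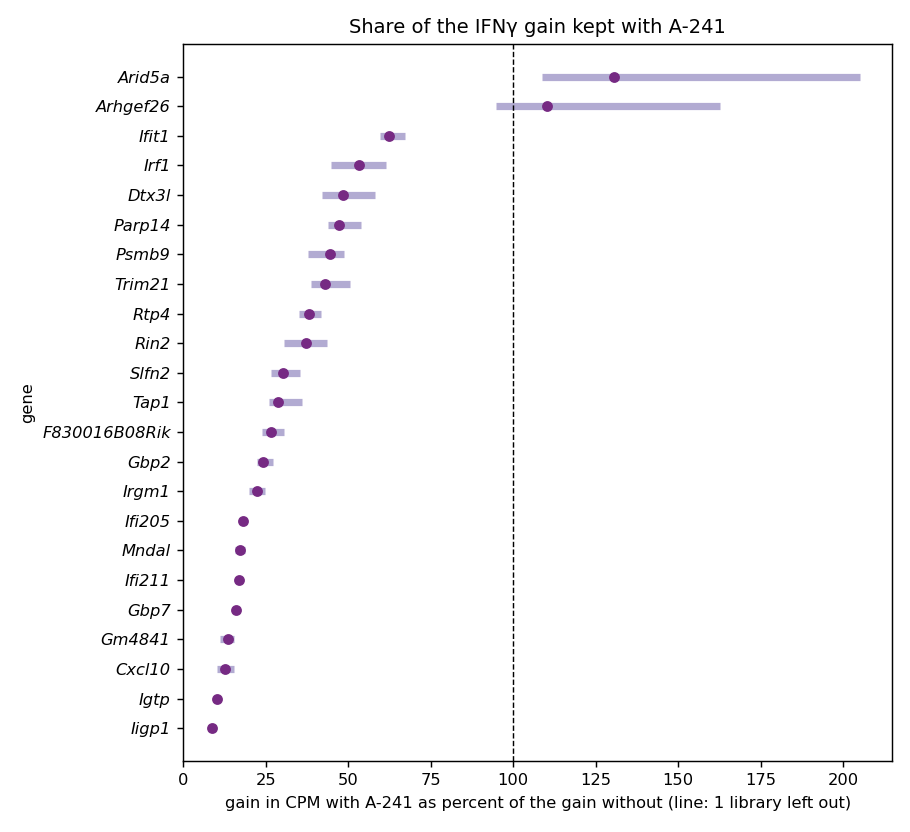
Gain in mean CPM on IFNγ with A-241 as a percent of the gain without inhibitor (x axis, points) for the 23 genes raised with A-241 (y axis), with bars from the lowest to the highest value when 1 of the 12 libraries was left out. The points run from 8.80% for Iigp1 to 131% for Arid5a, and the dashed line marks an equal gain. The genes were chosen on their rise with A-241.

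The share of the gain that remained differed widely between the 23 genes. It was 8.80% to 131% with a median of 28.7%, under 25% for 10 of them and 50% or more for 4, which were Arid5a, Arhgef26, Ifit1 and Irf1. The 23 were chosen on their rise with A-241, which enters this share, so the shares are high by the choice. The median was 28.5% without DMSO replicate 3 and IFNy replicate 2. For 16 of the 23 the level with A-241 and IFNγ was lower than with IFNγ alone past the threshold, as for 3.54% of all genes tested. Among the 21 genes with more than 3 counts in an A-241 library, the interaction value was under 0 for 18, with 2 calls (Igtp and Iigp1), and above 0 for 3 (Arid5a, Arhgef26 and Rin2), with none. The sign is not read for Gm4841 and F830016B08Rik. With A-485 at 1000 nM on both sides, a dose that differs from that of A-241, all 23 passed the threshold (0.744% of all genes) and their median log2 fold change was 2.32.

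Taking the response without inhibitor as the starting point, 137 genes were induced by IFNγ (1.15% of those tested, adjusted p under 0.01 and log2 fold change over 1), and 22 of them were also raised with A-241. Of the 109 with more than 3 counts in an A-241 library, 104 had a log2 fold change above 0 with A-241 and 47 had one over 1. Of all 137, 99 had A-241 groups that did not overlap, beside 6.08% over all genes. The fitted median of the 137 was 2.49 without inhibitor and 1.11 with A-241. With genes at 3 counts or fewer taken at their lower bound, these were 2.40 over all 137 and 0.906. The 11 genes for which both A-241 groups were at 3 counts or fewer were left out of the A-241 median alone. These medians therefore cover different sets of genes. Their summed gain was 6628 CPM without inhibitor and 1522 CPM with A-241, or 23% of it, with 21.6% to 23.9% when 1 of the 12 libraries was left out. The genes were chosen on the response without inhibitor, so the gain without inhibitor is high by the choice. The share kept is low by it, and neither carries a test.

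Per gene the share of the gain that remained had a median of 16.2% over the 137, and was 50% or more for 8 and under 5% for 28. These shares are low by the same choice. The median was 16.5% without DMSO replicate 3 and IFNy replicate 2. Calls fell on genes of higher count: all 22 genes called had 20 counts or more on average in the A241+IFNy libraries, as did 92 of the 137, and of the 45 genes under that level none was called. For 11 of the 137 both A-241 groups were at 3 counts or fewer in every library, so that a response with A-241 was not detectable at this depth. Gm12250, an immunity-related GTPase, was counted 3, 6 and 2 times with A-241 and IFNγ against 371, 250 and 266 times with IFNγ alone.

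**Figure D5:**
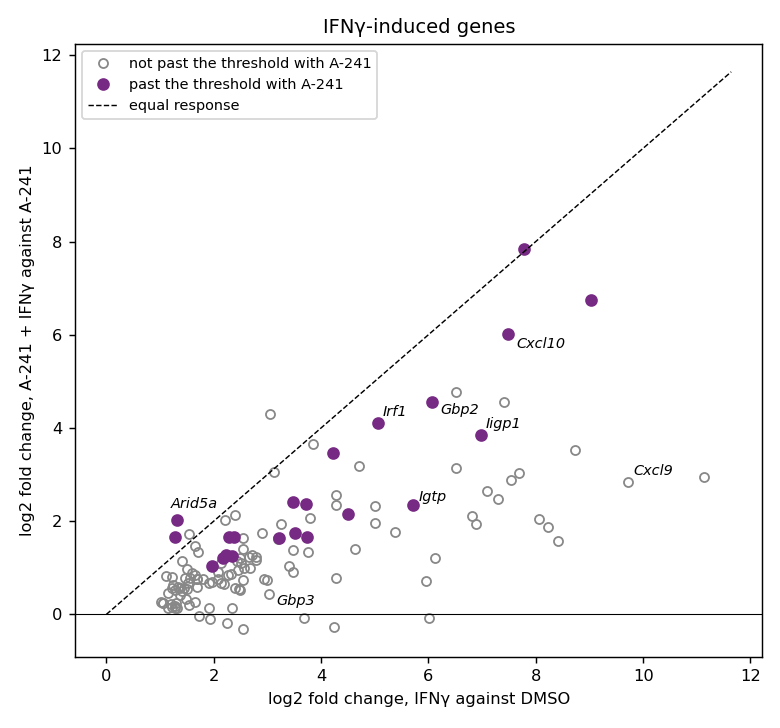
Log2 fold change on IFNγ with A-241 on both sides (y axis) against that without inhibitor (x axis) for 137 genes induced without inhibitor, filled where the change with A-241 had adjusted p under 0.01. Most points lie under the dashed line of equal response. Of the points, 28 are fitted over A-241 libraries with 3 counts or fewer and depend on the prior count.

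A test of the difference between the responses called 4 genes, which were all lower with A-241 (0.0334% of the genes tested), with Igtp, Gbp3 and Iigp1 among them. With 1 library left out the number was 1 (A241_IFNy replicate 1) to 9 (IFNy replicate 2), it was 2 without DMSO replicate 1 or 2, A241 replicate 1 or 2 or A241_IFNy replicate 2, and it was 13 without both libraries rich in Gm42418. The DMSO and IFNy libraries enter both this test and the choice of induced genes. No gene had a higher response past the threshold (edgeR, 171 at unadjusted p under 0.05, with 3 past the adjusted threshold by DESeq2 and none by limma voom). At adjusted p under 0.05 there were 11 lower, and 1 higher, which was Ccnd1, the cyclin D1 gene (interaction 1.12, adjusted p = 0.04). Ccnd1 had a log2 fold change of -0.66 without inhibitor and 0.46 with A-241. The other 7 of lower response at that level were Ifi203, Oasl2, Irgm1, Mtfr2, Tgtp1, Gbp7 and Samhd1, of which Irgm1 and Gbp7 were also among the 23 genes raised. Ccnd1, Ifi203, Oasl2, Mtfr2 and Samhd1 were named here after their values were seen.

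No gene was lowered past the threshold by IFNγ with A-241 on both sides (edgeR, 181 at unadjusted p under 0.05, with 3 past the adjusted threshold by DESeq2 and none by limma voom). The lowest p-value under 0 was that of Kcnn4, a calcium-activated potassium channel, which stood at 12, 10.6 and 10.9 CPM with A-241 and 5.43, 5.86 and 5.56 CPM with IFNγ added (log2 fold change -0.99 ± 0.19 SE, adjusted p = 0.0261). Its groups did not overlap. Tnrc18, the growth factor gene Hbegf, Gm26532 and Utp14b followed, with log2 fold changes of -1.65, -0.99, -1.47 and -0.86 and adjusted p from 0.0305 to 0.0912. Just inside the threshold on the raised side stood Tap1, Rtp4, Trim21, Gbp7 and Mndal, the last at adjusted p = 0.00841. Just outside stood Rnf122 (0.0107), Nrp2 (0.0107), Pde4b (0.0133), Cd274 (0.0152) and Tnfaip6 (0.0152).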

How the data were processed

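The authors deposited 1 table of raw counts per gene for 18 QuantSeq libraries. The submitters' processing notes name bcl2fastq 2.17.1.14, FastQC 0.11.5, cutadapt 1.7, HISAT2 2.1.0, featureCounts and limma, and the Ensembl identifiers were matched to GENCODE vM21 (GRCm38), which held 42548 of 43629 (97.5%). Libraries held 3417167 to 7856830 counts. Genes passing filterByExpr (11964) were fitted in edgeR 4.0.16 (R 4.3.3) with TMM factors and 1 mean per condition across all 18 libraries, which share 1 estimate of the spread. Contrasts were tested by the quasi-likelihood F test with Benjamini-Hochberg adjustment, two-sided, and called at adjusted p under 0.01. SE is the absolute log2 fold change divided by the square root of F. The fit was also run on counts simulated from its own estimates of the spread. Those counts held no libraries that stand apart, so the run says nothing about such libraries. Gain is the difference of mean CPM between IFNγ and no IFNγ. Where every library of the lower group had 3 counts or fewer, the fold is a bound against 3 counts.

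Genes were named by a rule: every called gene, listed genes called in either comparison with the defining members, the 5 lowest p-values under 0, the 5 on each side of the threshold, the extremes of the interaction, and checks. The comparison, lists and tests were chosen with earlier results of these data known. Alternatives were DESeq2 1.42.0, limma voom (limma 3.58.1), total count and upper quartile scaling, other filters, the groups compared only, a replicate block, other thresholds and leaving out libraries. Among the checks, Hexim1 was higher with A-241 than with DMSO (log2 fold change 1.63) and had a log2 fold change of -0.11 with IFNγ added, and Myc was at 0 to 4 counts in the A-241 libraries. Figures were drawn with Python 3.11.15 and matplotlib 3.10.9. Results for 1 gene are not reported here. The study's methods list featureCounts with the -O option, so a read on exon bases shared by 2 genes could be counted for both.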

Additional observations from a re-analysis of the deposited data

Results flagged for a closer look

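The response to IFNγ differed between cells with and without A-241, by the edgeR interaction test across all genes, for Igtp, Iigp1 and Gbp3 among others, and was lower with A-241 present. Igtp had the lowest p-value, with an interaction of -3.38 on the log2 scale. Iigp1 had -3.12 and Gbp3 had -2.58. Igtp and Iigp1 still rose past the threshold with A-241, and Gbp3 did not. The interactions of Gbp3 and Iigp1 lost their call under limma voom (adjusted p = 0.0109 and 0.0165), with the replicate block (both 0.0108) and without some single libraries, and that of Igtp passed without any 1 of the 12.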

How the results depend on the processing

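Counts of genes moved with the processing, and none of the 33 log2 fold changes with A-241 (genes called, near the threshold or lowest under 0) and 3 interactions that were recomputed for single genes reversed. Of the log2 fold changes, under all alternatives together, 405 kept their side of the threshold, 54 no longer passed it and 24 now did. Of the interactions of Igtp, Gbp3 and Iigp1, 39 such values kept their side and 23 no longer passed. Genes raised by IFNγ with A-241 on both sides numbered 23, and 42 by DESeq2, 40 with only the groups compared in the fit, 53 with both libraries rich in Gm42418 left out, 14 with at least 10 counts in each library and 39 at adjusted p under 0.05. All 23 were among the calls by DESeq2, with only the groups compared and without the 2 libraries. Genes lowered numbered 0, and 3, 3, 5 and 3 under DESeq2, groups compared only, both libraries left out and adjusted p under 0.05, and 1 each with total counts for scaling and no filter. Induced genes also raised numbered 22, and 37, 12, 44, 13 and 34 under DESeq2, groups compared only, both libraries left out, at least 10 counts in each library and adjusted p under 0.05. Fitted on their own 6 libraries, the groups without inhibitor gave 19 induced genes in place of 137. Genes with a lower response numbered 4, and 24 by DESeq2, 2 by limma voom, 1 with only the groups compared, 13 without both libraries and 11 at adjusted p under 0.05. Genes with a higher response numbered 0, and 3, 4 and 1 by DESeq2, without both libraries and at adjusted p under 0.05. The cause was not tested, apart from the smaller number of genes tested with at least 10 counts in each library.

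With 1 of the 6 libraries left out, genes raised numbered 14 to 17 and genes lowered none. With 1 of the 12 left out, induced genes also raised 14 to 29, genes with a lower response 1 to 9 and with a higher response 0 to 1, the last 2 upper ends both without IFNy replicate 2. The replicate block, a fit with the replicate number as a term, gave 20 genes raised, 19 of them induced, and 2 genes with a lower response (with Igtp among them). Under it Arhgef26 (adjusted p = 0.0102), Trim21 (0.0167), Mndal (0.0102) and the interactions of Gbp3 (0.0108) and Iigp1 (0.0108) no longer passed the threshold. Deviations of same-numbered A241_IFNy and A241 libraries correlated by 0.211, -0.0398 and -0.0282, so the numbers were not treated as pairs. Depth limits genes of few counts. With a library of DMSO or IFNy left out, 21 to 33 genes were raised, the most without IFNy replicate 2.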

Other observations

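A set of 6 genes passed adjusted p under 0.05 (edgeR) for IFNγ with A-241 on both sides but not 0.01 without inhibitor. They were Arhgef26, Nrp2, Pde4b, Tnfaip6, Tor3a and Spsb1, chosen after their values were seen. The limits on each side differ, so the set does not mark genes that respond only with A-241. Arhgef26 would pass 0.05 on both sides. Without inhibitor Spsb1 had log2 CPM of 1.05, 0.42 and 0.82 with DMSO and 1.94, 2.28 and 1.89 with IFNγ. Nrp2, a co-receptor for semaphorins and VEGF, stood at 19.8, 21.9 and 19.7 CPM with DMSO and 25.4, 20.2 and 17.6 CPM with IFNγ, and at 5.04, 5 and 4.2 CPM with A-241 and 9.55, 14.3 and 10.9 CPM with A-241 and IFNγ. Pde4b, a cyclic AMP phosphodiesterase, went from 1.89, 2.8 and 2.31 CPM to 6.51, 8.46 and 4.94 CPM with A-241. The log2 fold changes of A-241 against DMSO were -2.10 and -1.93 (adjusted p = 1.29e-05 and 0.00015). Their interaction values, 1.24 and 1.05, did not pass the threshold (adjusted p = 0.186 and 0.86). Tnfaip6, which encodes a hyaluronan-binding protein, had 2, 3 and 3 counts with A-241 and 3.04, 9.27 and 8.44 CPM with IFNγ added. Tor3a, an ATPase of the endoplasmic reticulum, had 39.3, 34.8 and 39.9 CPM with A-241 and IFNγ against 18.2, 12.2 and 17.8 CPM with IFNγ alone. Its level before IFNγ was also higher with A-241, at log2 CPM of 4.08, 4.32 and 4.29 against 3.17, 3.47 and 2.64 with DMSO. With IFNγ added these were 5.31, 5.14 and 5.33 with A-241 and 4.21, 3.65 and 4.18 without it.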
